A study of Mus musculus with 3 samples.

Results

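Activated CD4 T cells cultured in dialyzed medium (DM) were compared with the same kind of cells cultured in complete medium (CM), gene by gene, to ask which secreted factors, receptors, regulators and pathways differ between the media. The comparison used 4 of the 6 RNA libraries of the study, 2 from each medium, and all of the gene rows. CM is RPMI-1640 with 10% fetal bovine serum. DM is RPMI-1640 made without amino acids, with 10% serum from which small molecules had been reduced by dialysis. The cells were isolated from C57BL/6 mice (spleen and lymph node), which the study's methods describe as female and 6 to 8 weeks old unless stated otherwise. In both media they were stimulated for 72 h with antibodies to CD3 and CD28 at 2 µg/ml each. Amino acids of the base and small molecules of the serum differ together between the media, so the parts they played cannot be told apart. Granzymes, Pdcd1, Prkaa1, and lists of cell cycle and sterol synthesis genes were set aside.

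A naive CD4 T cell that meets antigen leaves quiescence, enlarges and divides. It then takes up amino acids, raises glycolysis, respiration and ribosome production, and exchanges the transcription factors and homing receptors of the resting state for those of a helper lineage. Cytokines and chemokines it secretes act on neighbouring cells, costimulatory receptors strengthen the signal of its antigen receptor, and inhibitory receptors restrain it. CM supplies amino acids for this course, whereas DM supplies only what the dialyzed serum still holds. The study measured methionine in its media and reports that DM was not free of it.

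Each library held 8504742 to 12377285 reads. The level of a gene is given as CPM (counts per 1000000 reads, scaled between libraries by TMM) for library 1 and then library 2 of a medium (CM1, CM2, DM1 and DM2), and the difference between media is DM minus CM on the log2(CPM + 1) scale with its standard error. A gene was called when the adjusted p of the limma fit (Benjamini-Hochberg) was below 0.05. Of 12770 gene rows tested, 2154 were called (16.9%), 996 of them higher in DM (7.8%) and 1158 lower (9.07%). The median difference of all rows tested was 0.07. A list's share of calls stands against these shares of all rows. Lists and members were chosen with earlier results of these data known, so a list's higher share is not a test. For each called gene, both libraries of one medium lay above both of the other, which also held for 54.1% of all rows tested. When libraries were scaled to their totals without Rn45s, the 45S ribosomal RNA precursor, 1320 genes were higher and 895 lower, and the median of all rows moved up by 0.14. Rn45s took 32.9% and 31.0% of the reads in CM and 37.2% and 38.3% in DM.

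DM1 stood apart from the other libraries on the second principal component. With CM1, CM2, DM1 or DM2 left out, 541, 859, 911 and 1061 genes were called. For each list, the counts called without CM1, CM2, DM1 and DM2 are given in that order in brackets after the main count, higher before lower. Brackets leave out a direction that had no call in the main fit, though some lists had a call in it with 1 library left out. In such a fit the lone library of a medium is assumed to vary like the other media. In all 4 of these fits, 329 genes were called. With only CM and DM in the fit, 277 genes were higher and 518 lower. Where scaling without Rn45s moved the higher share of a list's calls by over 10 percentage points, or their number by over 1.5 times, its counts close the paragraph. For named genes whose call was lost without 1 library, the adjusted p or the difference of that fit is given with the results. As fewer cells of a type and less RNA per cell cannot be told apart in bulk RNA, each difference is one of relative level in the culture. For genes at or near 0 reads in one medium, such as Ccl17 or Hspa1b, the size of the difference depends on the added 1.

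**Figure D1:**
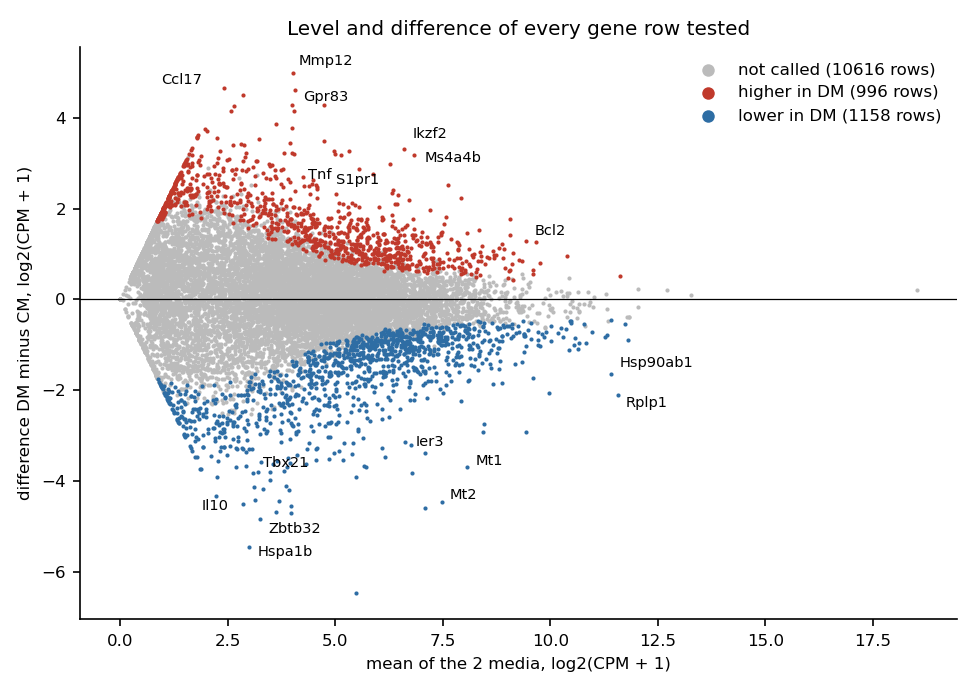
Each point is 1 of 12770 gene rows, with the mean log2(CPM + 1) of the media on the horizontal axis and the difference DM minus CM on the vertical axis. The 996 rows called higher (red) and 1158 called lower (blue) spread over the range of expression, and Mt1, Mt2, Hspa1b and Zbtb32 lie far below 0.

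The label of CD4 T cells was checked against marker genes. Cd4, the coreceptor for class II molecules, had 196 and 227 CPM in CM and 162 and 179.9 in DM (-0.31 ± 0.17, adjusted p = 0.232). Cd3e, a chain of the CD3 complex, had 92.4 and 88.4 CPM in CM and 184 and 88.8 in DM (0.50 ± 0.29, adjusted p = 0.264). Neither was called. Of 8 tested markers of CD4 and T cells, 2 were called higher (Cd3g and Cd5) and none lower. Markers of other cells were present too, at levels that differed between the lists. The 12 markers of macrophages and monocytes summed to 25.7 and 16.3 CPM in CM and 45.4 and 42.8 in DM, with Mertk at 0 in all 4 libraries. Of the 10 that were tested, 1, Lyz2, was called higher. Dendritic cell markers summed to 10.1 and 18.1 CPM in CM and 15.6 and 16.5 in DM, and Clec9a and Cd209a were at 0. B cell markers summed to 121 and 110.3 CPM in CM and 119.8 and 139 in DM with Pax5 at 0, and Fcer2a and Cr2 were called higher. Markers of CD8 T cells and NK cells summed to 120.5 and 134 CPM in CM and 47.3 and 48.1 in DM, and 2 of 7 tested were called lower, Cd8a and Nkg7. The part of these cells in the differences below was not tested. Class II genes and their chaperone summed to 490.3 and 511 CPM in CM and 292 and 239.7 in DM, and 3 of 5 tested were lower (H2-Ab1, H2-Eb1 and Cd74). None of the tested markers of plasma cells, granulocytes or erythrocytes and platelets was called, and those of mast cells and basophils were too low to test. Pecam1 was the 1 called marker of stroma and endothelium (1.18 ± 0.29, adjusted p = 0.0232). The call was lost for Pecam1 without CM1 (adjusted p = 0.137) or DM1 (0.0741) or DM2 (0.148), Cd3g without any 1 of the 4 (from 0.0697 to 0.154) and Cd74 without any 1 of the 4 (from 0.0672 to 0.155). It was also lost for Cd8a without any 1 of the 4 (adjusted p from 0.0955 to 0.190), Cr2 without CM1 (0.0933) or DM1 (0.167) or DM2 (0.107) and Fcer2a without CM2 (0.0656) or DM1 (0.0908) or DM2 (0.136). Further losses were those of H2-Ab1 without CM1 (adjusted p = 0.0534) or CM2 (0.0656) or DM2 (0.0501), H2-Eb1 without CM1 (0.0648) or DM1 (0.0552) or DM2 (0.0647) and Lyz2 without CM1 (0.139) or DM1 (0.119) or DM2 (0.108).

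Secreted factors differed in both directions, and 44.8% of the cytokines and growth factors tested were called, against 16.9% of all rows. Among 29 tested cytokines and growth factors, 6 were higher and 7 lower in DM (3, 4, 3 and 3 higher and 3, 5, 4 and 5 lower), with a median of -0.06, or 0.09 without Rn45s in the scaling. Il9, a growth factor for mast cells and T cells, was almost absent in CM, with 0 and 1.03 CPM in CM and 18.2 and 37.3 in DM (4.25 ± 0.49, adjusted p = 0.000787). Tnf, the prototype inflammatory cytokine, had 10.02 and 8.45 CPM in CM and 60.7 and 47.5 in DM (2.42 ± 0.28, adjusted p = 0.000746). Its relative Lta, lymphotoxin alpha, had 55.1 and 27.9 CPM in CM and 179.8 and 165 in DM (2.10 ± 0.27, adjusted p = 0.00138). The DM libraries lay well above the CM libraries for both. Il1b, a product of activated myeloid cells above all, had 1.59 and 0.768 CPM in CM and 8.67 and 15.5 in DM (2.56 ± 0.58, adjusted p = 0.0162). Calls lost were those of Lta without DM1 (adjusted p = 0.0692) or DM2 (0.0592) and Il1b without any 1 of the 4 (from 0.0618 to 0.0965).

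Cytokines of effector helper cells and anti-inflammatory factors were among those that fell. Il24, of the IL-10 family, had 69.7 and 53.2 CPM in CM and 1.84 and 1.06 in DM (-4.68 ± 0.56, adjusted p = 0.000911). Il10 itself, which restrains antigen-presenting cells, had 42.4 and 26.2 CPM in CM and 0 and 1.32 in DM (-4.49 ± 0.71, adjusted p = 0.00328). Neither cytokine of this family was above 2 CPM in a DM library. Il21, which helps B cells, had 32.1 and 50.3 CPM in CM and 1.12 and 3.18 in DM (-3.79 ± 0.56, adjusted p = 0.00237). Tgfb3, a transforming growth factor, was at 113 and 237 reads in CM against 0 and 1 in DM (-4.32 ± 0.62, adjusted p = 0.00217). For these genes, too, both DM libraries were close to 0. Il17a (-3.44 ± 0.62, adjusted p = 0.00584) and Ifng (-2.93 ± 0.67, adjusted p = 0.0176), the signature cytokines of the Th17 and Th1 lineages, were lower too and were named after their values were seen. Ifng is a gene of CD8 T cells and NK cells as well. Il4 had 4.67 and 1.66 CPM in CM and 1.12 and 0.883 in DM (-0.96 ± 0.62, adjusted p = 0.321). Tgfb1 had 3.42 and 3.59 CPM in CM and 1.22 and 0.795 in DM (-1.17 ± 0.60, adjusted p = 0.209). Neither was called. Il2 had too few reads to be tested. The call did not hold for Il10 without CM1 (adjusted p = 0.0596) or DM1 (0.0734), Il17a without CM1 (0.0544) or DM1 (0.0645) or DM2 (0.0539) and Ifng without CM1 (0.0641) or CM2 (0.110) or DM1 (0.111).

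Chemokines, which attract other leukocytes, were mostly higher, and 41.2% of those tested were called, against 16.9% of all rows. Of 17 tested, 6 were called higher and 1 lower (5, 4, 3 and 3 higher and 0, 1, 0 and 0 lower), with a median of 0.95. Ccl17, a ligand of CCR4, had 1 and 0 reads in CM against 263 and 277 in DM (4.66 ± 0.47, adjusted p = 0.000388). Ccl6 had 6.94 and 12.9 CPM in CM and 127 and 72.9 in DM (3.21 ± 0.34, adjusted p = 0.000457). Ccl9 had 2.62 and 3.20 CPM in CM and 35.6 and 25.2 in DM (2.99 ± 0.38, adjusted p = 0.00128). These chemokines were low in both CM libraries and plainly present in both DM libraries. Cxcl2, an attractant of neutrophils, had 5.24 and 2.18 CPM in CM and 24.2 and 30.3 in DM (2.66 ± 0.50, adjusted p = 0.00717). For all 4 the lower DM library lay well above the higher CM library. Ccl27a, a ligand of CCR10, went the other way with 12.1 and 8.32 CPM in CM and 0.306 and 0.795 in DM (-2.85 ± 0.59, adjusted p = 0.0112). Ccl6, Ccl9, Cxcl2 and Il1b are products of myeloid cells as well, whose markers summed to 25.7 and 16.3 CPM in CM and 45.4 and 42.8 in DM, and the part of those cells in these differences was not tested. Leaving out 1 library ended the call of Cxcl2 without DM1 (adjusted p = 0.0678) or DM2 (0.0748) and Ccl27a without any 1 of the 4 (from 0.0514 to 0.0869).

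Of 10 tested ligands of the TNF superfamily, 2 were higher (1, 1, 1 and 1 higher). That was 20% of them, against 16.9% of all rows. Tnfsf8, the ligand of CD30, had 35.3 and 42.02 CPM in CM and 153 and 244 in DM (2.30 ± 0.24, adjusted p = 0.000457). Extracellular proteases and their inhibitors had 3 higher and 6 lower of 30 tested (1, 2, 2 and 2 higher and 2, 2, 5 and 3 lower). Mmp12, macrophage elastase, had 7.17 and 0 CPM in CM and 109 and 73.1 in DM (4.98 ± 0.75, adjusted p = 0.00258), so that the CM libraries themselves were far apart. Adam19, a membrane protease that sheds growth factors, had 17.8 and 19.7 CPM in CM and 50.3 and 49.6 in DM (1.37 ± 0.26, adjusted p = 0.00763). The list's called share was 30%, against 16.9% of all rows. Most of the lower genes encode protease inhibitors, not all of which act outside the cell. Cst7 (cystatin F, an inhibitor of lysosomal cathepsins) had 100.1 and 91.5 CPM in CM and 22.2 and 12.01 in DM (-2.48 ± 0.32, adjusted p = 0.00140). Serpinb6b had 126 and 113 CPM in CM and 31.3 and 25.7 in DM (-2.03 ± 0.23, adjusted p = 0.000693). Serpine2 had 29.7 and 40.4 CPM in CM and 5.40 and 2.74 in DM (-2.87 ± 0.53, adjusted p = 0.00683). No longer called were Mmp12 without DM1 (adjusted p = 0.111) or DM2 (0.0860), Adam19 without CM1 (0.0539) and Serpine2 without CM1 (0.0539) or CM2 (0.0618) or DM2 (0.0608).

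**Figure D2:**
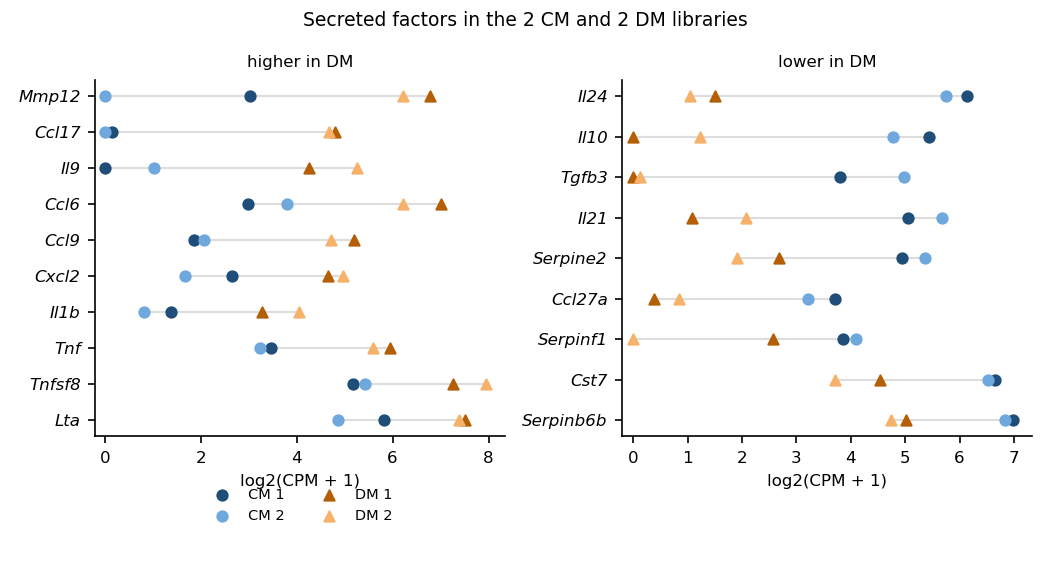
Levels of 19 genes from the lists of cytokines, chemokines, TNF ligands and proteases with their inhibitors, not all of them secreted. The 2 CM (circles) and 2 DM (triangles) libraries are on the log2(CPM + 1) scale. Circles and triangles do not overlap for any gene shown, which holds for every called gene and for 54.1% of all rows tested. Il24, Il10 and Tgfb3 were near 0 in DM, while Ccl17 and Il9 were near 0 in CM.

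Among 16 tested chemokine receptors 3 were higher and 1 lower (1, 1, 2 and 1 higher and 0, 0, 0 and 2 lower). Of 36 tested other G protein-coupled and purinergic receptors, 6 were higher (3, 5, 3 and 3 higher) and none lower, a share of 16.7% that was close to that of all genes. For the chemokine receptors the share was 25%, against 16.9% of all rows. S1pr1, the receptor by which lymphocytes leave lymph nodes, had 20.6 and 33.8 CPM in CM and 206 and 228 in DM (2.99 ± 0.24, adjusted p = 0.000115). Ccr7, which directs cells to the T cell zone, had 206 and 214 CPM in CM and 393 and 329 in DM (0.77 ± 0.15, adjusted p = 0.00813). Both are receptors of resting and central memory cells. Gpr183, an oxysterol receptor that positions cells within follicles, had 57.9 and 33.04 CPM in CM and 118 and 181 in DM (1.72 ± 0.28, adjusted p = 0.00408). Gpr83, an orphan receptor known from regulatory T cells, had 3.53 and 1.92 CPM in CM and 53.3 and 90.8 in DM (4.28 ± 0.36, adjusted p = 0.000142). Ccr6, the receptor of CCL20, had 5.01 and 4.23 CPM in CM and 18.9 and 23.4 in DM (1.97 ± 0.40, adjusted p = 0.0104). The CM and DM libraries were widely apart for Gpr83 and less so for Ccr6. Cxcr4, the receptor of CXCL12, was the lower one with 58.5 and 68.3 CPM in CM and 15.9 and 40.2 in DM (-1.28 ± 0.38, adjusted p = 0.0444). The call was lost for Ccr7 without CM1 (adjusted p = 0.0762) or CM2 (0.0585), Gpr183 without DM1 (0.0558) or DM2 (0.0890) and Ccr6 without DM1 (0.0543) or DM2 (0.0608). Lost as well was the call of Cxcr4 without CM1 (adjusted p = 0.160) or CM2 (0.198) or DM1 (0.115). The difference of Cxcr4 without DM1 was -0.64 and the difference of Cxcr4 without DM2 was -1.93. Scaling without Rn45s gave 3 higher and none lower of the chemokine receptors.

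Cytokine receptors were called in both directions, 6 higher and 6 lower of 44 tested (1, 4, 1 and 2 higher and 0, 2, 0 and 1 lower), with a median of 0.39, or 0.55 without Rn45s in the scaling. The called share was 27.3%, against 16.9% of all rows, and both chains of the TGF-beta receptor were among the higher ones. Tgfbr1 had 4.10 and 7.30 CPM in CM and 14.99 and 23.7 in DM (1.61 ± 0.41, adjusted p = 0.0263). Tgfbr2 had 24.9 and 32.2 CPM in CM and 89.6 and 82.00 in DM (1.56 ± 0.23, adjusted p = 0.00254). Their CM and DM libraries did not overlap, as for every called gene. Il12rb1 and Il12rb2, the chains through which IL-12 promotes the Th1 lineage, were both lower. Il12rb2 had 21.98 and 12.04 CPM in CM and 1.12 and 1.94 in DM (-2.79 ± 0.57, adjusted p = 0.0108). Il12rb1 had 39.98 and 24.97 CPM in CM and 14.6 and 12.4 in DM (-1.18 ± 0.36, adjusted p = 0.0484). Il7r and Il2rb, chains of the receptors for the survival cytokine IL-7 and for IL-2, were lower by less than 1 log2 unit. Il7r had 304 and 261 CPM in CM and 165 and 177 in DM (-0.72 ± 0.16, adjusted p = 0.0145). Il2rb had 732 and 753 CPM in CM and 481 and 506 in DM (-0.59 ± 0.13, adjusted p = 0.0161). Il2ra, the activation-induced alpha chain of the IL-2 receptor, had 1026 and 930.2 CPM in CM and 1102 and 999 in DM (0.10 ± 0.14, adjusted p = 0.645), which was no call. Calls lost were those of Tgfbr1 without CM1 (adjusted p = 0.119) or DM1 (0.0723) or DM2 (0.134), Il12rb2 without CM1 (0.0767) or DM1 (0.0700) or DM2 (0.0520) and Il12rb1 without any 1 of the 4 (from 0.0592 to 0.210). It was also lost for Il7r without any 1 of the 4 (adjusted p from 0.0522 to 0.108) and Il2rb without CM1 (0.0904) or CM2 (0.0927) or DM1 (0.0592). Without Rn45s in the scaling there were 10 higher and 4 lower of the cytokine and growth factor receptors.

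Of 34 tested costimulatory and TNF family receptors 8 were higher and 4 lower (1, 5, 3 and 4 higher and 0, 2, 2 and 1 lower). Of these receptors 35.3% were called, against 16.9% of all rows. Fas, the death receptor, had 25.4 and 26.6 CPM in CM and 78.9 and 73.8 in DM (1.52 ± 0.22, adjusted p = 0.00224). Slamf6, a self-binding receptor of less differentiated T cells, had 1.14 and 8.97 CPM in CM and 29.9 and 58.3 in DM (3.21 ± 0.65, adjusted p = 0.00977). Cd5 and Cd6 are scavenger receptors that tune antigen receptor signals. Cd5 had 68.8 and 71.6 CPM in CM and 256 and 140.2 in DM (1.42 ± 0.26, adjusted p = 0.00591). Cd6 had 32.6 and 52.9 CPM in CM and 101 and 96.1 in DM (1.23 ± 0.25, adjusted p = 0.0100). DM1 lay above DM2 for Cd5, while the DM libraries were alike for Cd6. On the lower side was Slamf7, with 38.7 and 78.6 CPM in CM and 10.2 and 14.2 in DM (-2.11 ± 0.48, adjusted p = 0.0162). Cd86, a ligand of CD28 and CTLA-4, had 31.9 and 22.4 CPM in CM and 6.32 and 5.12 in DM (-2.05 ± 0.42, adjusted p = 0.0109). Cd28 itself, one of the stimulated receptors, was slightly lower with 271 and 269 CPM in CM and 191 and 183 in DM (-0.53 ± 0.16, adjusted p = 0.0490). Icos, a relative of CD28, and Cd40lg, by which helper cells activate B cells, were not called. Icos had 696 and 749.6 CPM in CM and 607 and 603 in DM (adjusted p = 0.203). Cd40lg had 5.81 and 2.82 CPM in CM and 7.96 and 22.1 in DM (adjusted p = 0.109). The call did not hold for Slamf6 without CM1 (adjusted p = 0.0648) or DM1 (0.109) or DM2 (0.168), Cd5 without CM1 (0.0791) or CM2 (0.0636) and Cd6 without CM1 (0.0694) or DM1 (0.106) or DM2 (0.0905). Further losses were those of Slamf7 without any 1 of the 4 (adjusted p from 0.0562 to 0.166), Cd86 without CM1 (0.0853) or DM1 (0.0632) or DM2 (0.0680) and Cd28 without any 1 of the 4 (from 0.112 to 0.170). The difference of Slamf6 without CM1 was 2.10. Counts scaled without Rn45s were 10 higher and 3 lower of the costimulatory and TNF family receptors.

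Inhibitory receptors and their ligands, Pdcd1 not counted, did not move as a block, with 5 higher and 4 lower of 24 tested (2, 6, 3 and 2 higher and 2, 2, 2 and 2 lower). A share of 37.5% was called, against 16.9% of all rows. Nrp1, a semaphorin coreceptor that marks many thymus-derived regulatory T cells, had 3.30 and 2.56 CPM in CM and 59.5 and 77.7 in DM (4.14 ± 0.30, adjusted p = 6.53e-05). Nt5e (CD73, which makes adenosine) had 4.10 and 5.76 CPM in CM and 21.9 and 45.9 in DM (2.48 ± 0.43, adjusted p = 0.00476). Cd96 had 10.6 and 7.30 CPM in CM and 33.04 and 41.7 in DM (1.96 ± 0.33, adjusted p = 0.00473). These receptors were low in CM, at under 11 CPM. Btla, the receptor of the herpesvirus entry mediator, had 21.6 and 35.6 CPM in CM and 81.8 and 60.4 in DM (1.31 ± 0.28, adjusted p = 0.0135). For all 4 the media did not overlap, as for every called gene, and Nrp1 had the widest gap. Among the lower genes, Ctla4, the competitor of CD28 for its ligands, had 394 and 377 CPM in CM and 122 and 163 in DM (-1.44 ± 0.18, adjusted p = 0.00105). Lilrb4a, an immunoglobulin-like inhibitory receptor, had 147 and 129.6 CPM in CM and 33.2 and 22.2 in DM (-2.31 ± 0.25, adjusted p = 0.000532). Lag3, a ligand-binding relative of CD4, had 12.1 and 14.9 CPM in CM and 2.24 and 2.47 in DM (-2.10 ± 0.53, adjusted p = 0.0256). Leaving out 1 library ended the call of Nt5e without CM1 (adjusted p = 0.0572) or DM2 (0.0524), Cd96 without DM2 (0.0549) and Btla without CM1 (0.0953) or DM1 (0.130) or DM2 (0.0702). Lost as well was the call of Lag3 without any 1 of the 4 (adjusted p from 0.0583 to 0.0888). Scaling without Rn45s gave 6 higher and 3 lower of the inhibitory and coinhibitory receptors and ligands.

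Adhesion and surface proteins gave 11 higher and 7 lower genes of 50 tested (7, 7, 8 and 5 higher and 4, 3, 3 and 5 lower). This was 36% of the list, against 16.9% of all rows. Amica1 (JAML, a junctional adhesion molecule) had 2.39 and 9.73 CPM in CM and 119 and 113 in DM (4.28 ± 0.44, adjusted p = 0.000457). Icam2 had 3.99 and 15.5 CPM in CM and 56.9 and 47.2 in DM (2.54 ± 0.48, adjusted p = 0.00747). The integrin chain Itgb1 had 24.7 and 31.2 CPM in CM and 95.1 and 99.8 in DM (1.77 ± 0.21, adjusted p = 0.000987). The CM libraries were uneven for Amica1 and Icam2 and even for Itgb1. Cd69, which is induced early in activation and keeps S1PR1 off the surface, had 15.7 and 16.7 CPM in CM and 68.3 and 61.7 in DM (1.94 ± 0.26, adjusted p = 0.00165). The Ly6 proteins Ly6a and Ly6c1, surface markers of activated and memory cells, were both lower. Ly6a had 768 and 776 CPM in CM and 213 and 211 in DM (-1.86 ± 0.15, adjusted p = 0.000124). Ly6c1 had 132 and 114 CPM in CM and 19.1 and 13.6 in DM (-2.85 ± 0.28, adjusted p = 0.000385). Libraries of the same medium gave nearly the same Ly6a level. Cd24a, a sialoglycoprotein, had 40.6 and 52.9 CPM in CM and 5.71 and 5.12 in DM (-2.89 ± 0.44, adjusted p = 0.00292). The semaphorin Sema7a had 38.3 and 42.3 CPM in CM and 8.67 and 12.6 in DM (-1.84 ± 0.38, adjusted p = 0.0106). No longer called were Amica1 without DM1 (adjusted p = 0.0544) or DM2 (0.0505), Icam2 without DM1 (0.137) or DM2 (0.110) and Sema7a without CM1 (0.0695) or CM2 (0.0716) or DM1 (0.0700). The difference of Icam2 without CM1 was 1.68.

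**Figure D3:**
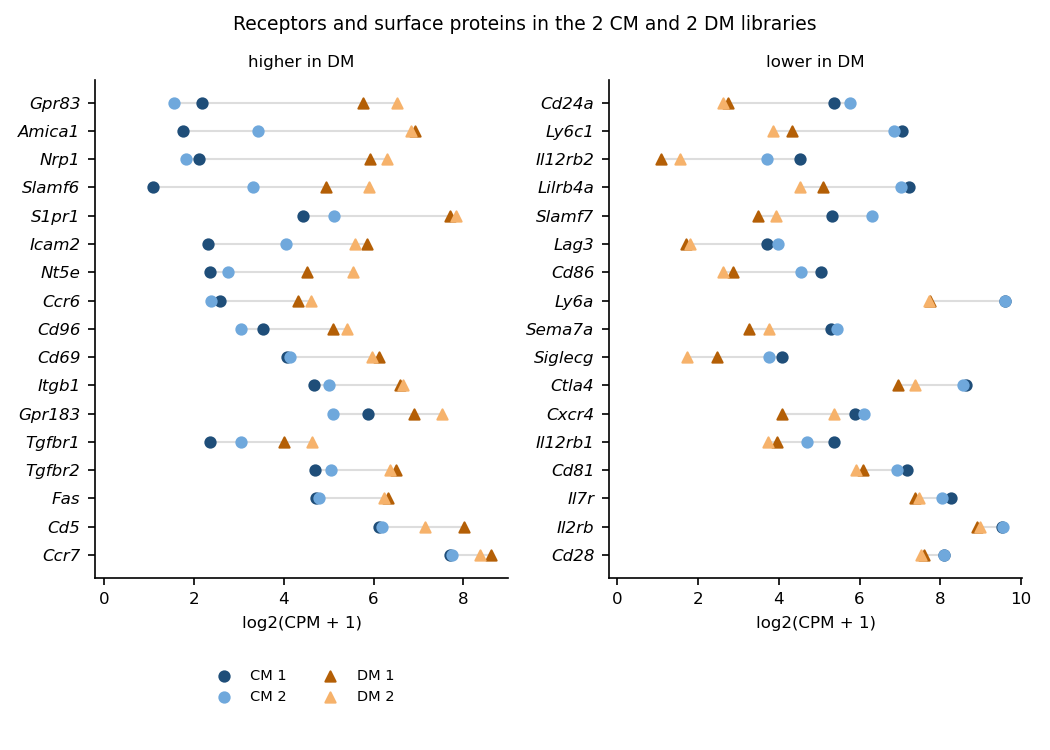
Levels of 34 receptors and surface proteins in the 2 CM (circles) and 2 DM (triangles) libraries, on the log2(CPM + 1) scale. As for every called gene, circles and triangles do not overlap for the genes shown. The gap was wide for Gpr83, Amica1 and Nrp1 and narrow for Il2rb and Cd28.

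Genes of the T cell receptor complex and its proximal signalling had 10 higher and 3 lower members of 53 tested (2, 4, 5 and 5 higher and 0, 1, 2 and 2 lower), with a median of 0.23. A share of 24.5% was called, against 16.9% of all rows. Fyn, a kinase that acts at the receptor, was higher with 95.7 and 114 CPM in CM and 273 and 311 in DM (1.47 ± 0.17, adjusted p = 0.000878). Zap70, the kinase that binds the phosphorylated receptor, had 159 and 169 CPM in CM and 120.3 and 92.4 in DM (-0.63 ± 0.19, adjusted p = 0.0485). Malt1, the protease that links the receptor to NF-kB, had 124 and 106 CPM in CM and 54.1 and 54.8 in DM (-1.06 ± 0.20, adjusted p = 0.00807). Kinases of the same cascade thus differed in direction. The call was lost for Zap70 without CM1 (adjusted p = 0.141) or CM2 (0.166) or DM2 (0.0982) and Malt1 without CM1 (0.0707).

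Transcription factors of helper differentiation held a large share of calls, with 27 of 49 tested called (55.1%, against 16.9% of all rows), 11 higher and 16 lower (5, 5, 6 and 7 higher and 3, 3, 6 and 7 lower). The list was chosen with earlier results of these data known, so its share is not a test. Ikzf2 (Helios, an Ikaros family factor of regulatory T cells) had 30.4 and 29.1 CPM in CM and 336 and 276 in DM (3.31 ± 0.17, adjusted p = 1.44e-05). Its relative Ikzf4 (Eos) had 59.5 and 46.6 CPM in CM and 148 and 121 in DM (1.33 ± 0.20, adjusted p = 0.00245). Ikzf2 had one of the smallest adjusted p-values of all rows. Tox, a factor of T cell development and of exhausted cells, had 2.85 and 4.74 CPM in CM and 49.98 and 50.2 in DM (3.44 ± 0.35, adjusted p = 0.000390). Runx1 had 24.4 and 25.6 CPM in CM and 75.2 and 77.6 in DM (1.57 ± 0.22, adjusted p = 0.00192). For all 4, libraries of the same medium lay close together and those of different media far apart. Irf4, induced by antigen receptor signals, had 144 and 125 CPM in CM and 273 and 209 in DM (0.82 ± 0.18, adjusted p = 0.0135). A call lost was that of Irf4 without CM1 (adjusted p = 0.0681) or CM2 (0.0970) or DM1 (0.0702).

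Factors of Th1 effector cells were among the lower genes. Tbx21 (T-bet) had 80.6 and 65.9 CPM in CM and 13.97 and 2.91 in DM (-3.27 ± 0.61, adjusted p = 0.00691). Runx3, its partner at the Ifng locus, had 519 and 589 CPM in CM and 209 and 210.1 in DM (-1.40 ± 0.14, adjusted p = 0.000457). The DM libraries were uneven for Tbx21 and even for Runx3. Zbtb32, a repressor induced in activated lymphocytes, fell to near 0, with 51.9 and 46.6 CPM in CM and 0.102 and 1.85 in DM (-4.82 ± 0.62, adjusted p = 0.00132). Nfil3, a basic leucine zipper factor, had 135 and 196 CPM in CM and 62.4 and 24.6 in DM (-2.02 ± 0.38, adjusted p = 0.00750). Pou2af1, a coactivator of octamer factors, had 51.9 and 39.7 CPM in CM and 5.71 and 15.1 in DM (-2.16 ± 0.48, adjusted p = 0.0152). For both, the DM libraries differed from each other by more than the CM libraries did on the log2 scale. Irf8 had 319 and 419 CPM in CM and 109.7 and 87.2 in DM (-1.89 ± 0.20, adjusted p = 0.000457), and it and Runx3 were named after their values were seen. Gata3, Bcl6 and Foxp3, master factors of Th2, follicular helper and regulatory T cells, were not called. Gata3 had 243 and 345 CPM in CM and 176 and 220.5 in DM (-0.55 ± 0.20, adjusted p = 0.0843). Bcl6 had 5.69 and 9.99 CPM in CM and 7.65 and 12.3 in DM (0.32 ± 0.50, adjusted p = 0.698). Foxp3 had 34.7 and 16.1 CPM in CM and 51.5 and 27.01 in DM (0.63 ± 0.38, adjusted p = 0.285). Tbx21 and Runx3 are also genes of CD8 T cells and NK cells, whose markers summed to 120.5 and 134 CPM in CM and 47.3 and 48.1 in DM, and the part of those cells was not tested. The call did not hold for Tbx21 without CM1 (adjusted p = 0.0923) or CM2 (0.0692) or DM2 (0.0645), Nfil3 without CM1 (0.0634) or CM2 (0.0950) or DM2 (0.0602) and Pou2af1 without CM1 (0.121) or CM2 (0.0752) or DM1 (0.0847).

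Genes of the naive and quiescent state were the list with the highest share of calls outside those set aside, 23 of 37 tested (62.2%). Of these, 21 were higher and 2 lower in DM (15, 14, 13 and 12 higher and 0, 0, 0 and 0 lower), and the median of the list was 0.86. This list, too, was chosen with earlier results of these data known, so its share is not a test. Ms4a4b, a membrane protein of naive T cells, had 44.9 and 30.5 CPM in CM and 362 and 320.1 in DM (3.17 ± 0.20, adjusted p = 3.56e-05). Tob1, an antiproliferative factor, had 0 and 2.56 CPM in CM and 18.4 and 19.3 in DM (3.39 ± 0.63, adjusted p = 0.00706). St8sia6, a sialyltransferase, had 1.03 and 0.384 CPM in CM and 11.7 and 13.3 in DM (3.01 ± 0.54, adjusted p = 0.00559). Tob1 and St8sia6 were nearly absent from CM, whereas Ms4a4b was not. Tcf7 (TCF-1, a factor of naive and stem-like T cells) had 16.5 and 15.7 CPM in CM and 35.8 and 72.1 in DM (1.599 ± 0.35, adjusted p = 0.0137). Named after their values were seen, Klf2, which drives S1pr1, had 102 and 63.9 CPM in CM and 571 and 389 in DM (2.53 ± 0.25, adjusted p = 0.000388). The transcription factors Lef1 and Foxp1 were chosen in the same way. Lef1 had 175 and 208 CPM in CM and 661 and 468 in DM (1.54 ± 0.18, adjusted p = 0.000916). Foxp1 had 302 and 309 CPM in CM and 669 and 755 in DM (1.22 ± 0.14, adjusted p = 0.000693). Every one of these lay higher in both DM libraries, as did every gene called higher. Il7r and Arl4c were the 2 lower members. Arl4c had 119 and 108 CPM in CM and 72.9 and 66.6 in DM (-0.69 ± 0.20, adjusted p = 0.0424). Leaving out 1 library ended the call of Tob1 without DM1 (adjusted p = 0.0969) or DM2 (0.0940), Tcf7 without CM1 (0.0885) or CM2 (0.0837) or DM2 (0.0638) and Arl4c without any 1 of the 4 (from 0.106 to 0.176).

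Regulatory T cell genes showed 8 higher and 2 lower of 21 tested (7, 8, 7 and 6 higher and 1, 2, 2 and 2 lower), with a median of 0.63. The called genes were 47.6% of the list, against 16.9% of all rows. Its members were chosen with earlier results of these data known. The higher members were Gpr83, Nrp1, Ikzf2, Nt5e, Lrrc32, Ikzf4, Izumo1r and Socs2, whereas Il10 and Ctla4 were lower and Foxp3, the defining gene, was not called. Lrrc32 (GARP, which docks latent TGF-beta on the surface) had 34.2 and 33.8 CPM in CM and 216 and 159 in DM (2.41 ± 0.20, adjusted p = 0.000142) and was named after its value was seen. Members of the list are also among the receptors and transcription factors above. No longer called was Izumo1r without DM1 (adjusted p = 0.0648) or DM2 (0.0631).

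Immediate early, NF-kB and NR4A genes had 11 higher and 5 lower of 44 tested (5, 4, 2 and 4 higher and 2, 3, 4 and 3 lower). That was 36.4% of them, against 16.9% of all rows, in a list chosen with earlier results of these data known. Egr1, a zinc finger factor induced by ERK signals, had 28.02 and 42.4 CPM in CM and 142 and 223 in DM (2.34 ± 0.27, adjusted p = 0.000739). Egr3 had 12.4 and 12.04 CPM in CM and 50.9 and 31.8 in DM (1.64 ± 0.34, adjusted p = 0.0113). Myc, the factor of growth and metabolism, had 12.2 and 10.9 CPM in CM and 47.8 and 30.9 in DM (1.66 ± 0.35, adjusted p = 0.0117). The AP-1 components Jun and Fosl2 went in the other direction. Jun had 107 and 101 CPM in CM and 26.1 and 42.7 in DM (-1.61 ± 0.26, adjusted p = 0.00355). Fosl2 had 204 and 217 CPM in CM and 83.9 and 83.7 in DM (-1.32 ± 0.17, adjusted p = 0.00138). Ier3, an early response gene of survival, had the largest decrease of the list, with 264 and 315 CPM in CM and 37.8 and 27.3 in DM (-3.13 ± 0.23, adjusted p = 8.31e-05). The call was lost for Egr3 without CM1 (adjusted p = 0.0687) or CM2 (0.0620) or DM1 (0.0720), Myc without any 1 of the 4 (from 0.0520 to 0.0989) and Jun without CM1 (0.0584).

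**Figure D4:**
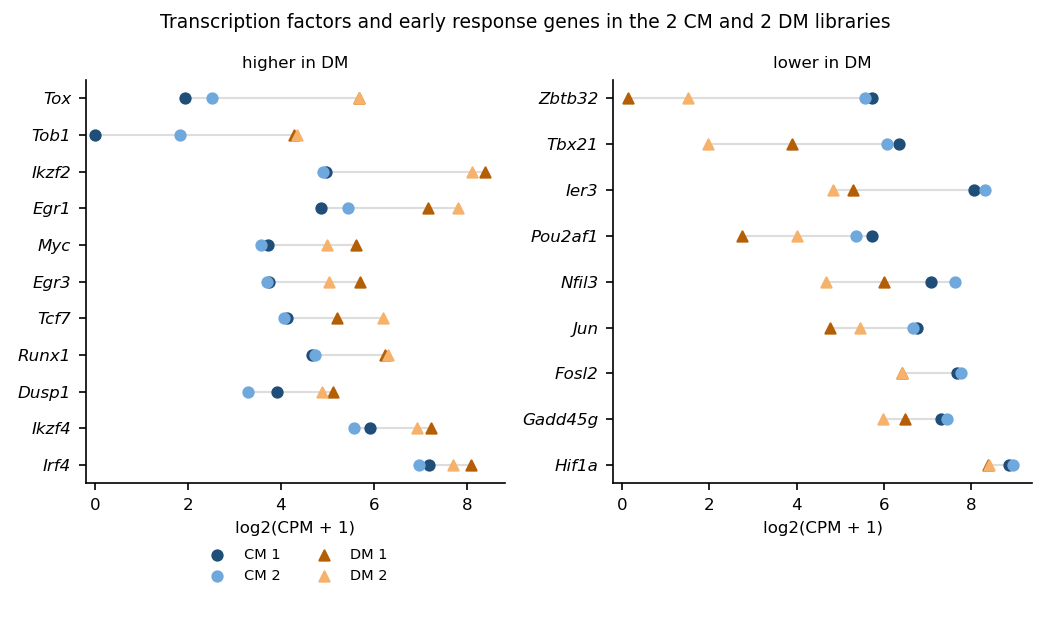
Levels of 20 transcription factors and early response genes in the 2 CM (circles) and 2 DM (triangles) libraries, on the log2(CPM + 1) scale. Ikzf2, Tox and Egr1 were higher in both DM libraries and Zbtb32, Tbx21 and Ier3 lower, with DM2 below DM1 for Tbx21 and above it for Zbtb32.

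Of survival, death and p53 target genes, about as many were called as among all rows (16.9%). Bcl2, the survival factor, had 419 and 473 CPM in CM and 966 and 1208 in DM (1.28 ± 0.15, adjusted p = 0.000889). Casp6, a caspase of the execution phase, was lower with 135 and 87.2 CPM in CM and 14.8 and 25.2 in DM (-2.43 ± 0.34, adjusted p = 0.00182). Of 39 tested BCL2 family, caspase and death genes, 4 were higher and 4 lower (2, 2, 2 and 3 higher and 2, 2, 1 and 3 lower), a share of 20.51%, with a median of -0.01, or 0.15 without Rn45s in the scaling. Mlkl and Ripk3, which carry out necroptosis, were both lower (-2.84 ± 0.72, adjusted p = 0.0258 and -1.27 ± 0.38, adjusted p = 0.0455). Socs1, an inhibitor of JAK kinases, had 80.4 and 76.2 CPM in CM and 283 and 148 in DM (1.37 ± 0.26, adjusted p = 0.00772). Pim3 and Pim2, kinases induced by STATs, were lower. Pim3 had 212 and 248 CPM in CM and 57.6 and 40.7 in DM (-2.22 ± 0.23, adjusted p = 0.000427). Pim2 had 194 and 241 CPM in CM and 99.2 and 100.5 in DM (-1.11 ± 0.17, adjusted p = 0.00326). Of JAK-STAT kinases, feedback and STAT5 target genes 32% were called, against 16.9% of all rows. JAK-STAT kinases, feedback and STAT5 target genes had 6 higher and 2 lower of 25 (4, 6, 4 and 4 higher and 2, 2, 2 and 2 lower). Cdkn1a (p21, a brake of the cell cycle) had 479 and 625 CPM in CM and 182 and 192 in DM (-1.55 ± 0.16, adjusted p = 0.000471), and p53 target genes had 3 higher and 3 lower of 31 (1, 2, 1 and 2 higher and 1, 1, 2 and 4 lower), a share of 19.4%. Calls lost were those of Casp6 without DM1 (adjusted p = 0.0504), Mlkl without CM1 (0.146) or CM2 (0.0975) or DM1 (0.123) and Ripk3 without any 1 of the 4 (from 0.0659 to 0.164). It was also lost for Socs1 without CM1 (adjusted p = 0.0841) or CM2 (0.0828). The difference of Mlkl without DM1 was -1.87 and the difference of Socs1 without DM1 was 0.91. Without Rn45s in the scaling there were 7 higher and 3 lower of the BCL2 family, caspases and death regulators.

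Interferon-stimulated genes had 8 higher and 2 lower of 45 tested (3, 1, 2 and 1 higher and 1, 2, 2 and 2 lower), 22.2% of the list. That share stands against 16.9% of all rows, and with only CM and DM in the fit 1 was higher and 2 lower. Bst2 (tetherin), the interferon-induced restriction factor, was lower with 21.8 and 27.5 CPM in CM and 3.98 and 4.24 in DM (-2.32 ± 0.40, adjusted p = 0.00500). The double-stranded RNA sensor Ifih1 was higher with 3.99 and 1.15 CPM in CM and 11.02 and 16.3 in DM (2.14 ± 0.57, adjusted p = 0.0306). Ifit2 was higher with 1.71 and 0 CPM in CM and 5.10 and 24.7 in DM (2.93 ± 0.76, adjusted p = 0.0282). Outside the list, the membrane proteins Ifitm1 and Ifitm3, which restrict virus entry, were lower. Ifitm1 had 67.7 and 60.6 CPM in CM and 1.12 and 5.03 in DM (-4.18 ± 0.55, adjusted p = 0.00150). Ifitm3, named after its value was seen, had 64.6 and 72.4 CPM in CM and 4.79 and 4.50 in DM (-3.62 ± 0.42, adjusted p = 0.000770). The interferon-induced genes named here, in and outside the list, thus differed in either direction. Among 8 tested GTPases of the GIMAP family, which support lymphocyte survival, Gimap8 and Gimap3 were higher and Gimap7 lower (1, 1, 0 and 2 higher and 1, 1, 1 and 1 lower). They were 37.5% of the tested family, against 16.9% of all rows. Gimap8 had 93.8 and 62.2 CPM in CM and 279 and 165 in DM (1.48 ± 0.27, adjusted p = 0.00606). Gimap7 had 269 and 238 CPM in CM and 102 and 118 in DM (-1.19 ± 0.17, adjusted p = 0.00225). Of MHC class I and peptide loading genes 23.5% were called, against 16.9% of all rows. MHC class I and peptide loading genes had 1 higher and 3 lower of 17 (0, 0, 0 and 0 higher and 1, 1, 2 and 1 lower), among the latter the peptide transporter Tap1 with 248 and 235 CPM in CM and 120.0 and 106 in DM (-1.09 ± 0.16, adjusted p = 0.00240). The call did not hold for Ifih1 without CM2 (adjusted p = 0.116) or DM1 (0.111) or DM2 (0.157), Ifit2 without any 1 of the 4 (from 0.0620 to 0.186) and Gimap8 without CM2 (0.0781) or DM1 (0.0929). Further losses were those of Gimap3 without CM1 (adjusted p = 0.0853) or DM1 (0.0656) or DM2 (0.0648). The difference of Ifit2 without DM2 was 1.89. Counts scaled without Rn45s were 4 higher and 1 lower of the GIMAP GTPases and 2 higher and 1 lower of the MHC class I and peptide loading genes.

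Enzymes that write, read or erase methyl groups on histones and DNA were called more often than genes at large, 21 of 56 tested (37.5%), 13 higher and 8 lower (5, 8, 7 and 5 higher and 1, 2, 4 and 5 lower). As the list's members were chosen with earlier results of these data known, its share is not a test. Methyltransferases of histone H3 lysine 4 were among the higher genes. Setd1b had 29.95 and 32.2 CPM in CM and 179 and 95.9 in DM (2.04 ± 0.29, adjusted p = 0.00196). Kmt2a, named after its value was seen, had 338 and 316 CPM in CM and 742 and 1022 in DM (1.41 ± 0.17, adjusted p = 0.000889). Tet3, a DNA demethylase, had 55.3 and 55.6 CPM in CM and 158 and 183 in DM (1.599 ± 0.18, adjusted p = 0.000600). The lower enzymes included repressive writers. Ezh2, which methylates H3 lysine 27, had 294 and 389 CPM in CM and 133 and 136 in DM (-1.32 ± 0.18, adjusted p = 0.00151). The maintenance methyltransferase Dnmt1 had 152 and 139 CPM in CM and 69.6 and 56.7 in DM (-1.20 ± 0.21, adjusted p = 0.00476). Its cofactor Uhrf1 had 50.8 and 49.2 CPM in CM and 13.8 and 18.5 in DM (-1.59 ± 0.31, adjusted p = 0.00833). Not every repressive writer was lower. Suv420h1 and Prdm2, which write repressive histone marks, were higher (1.68 ± 0.26, adjusted p = 0.00302 and 1.42 ± 0.34, adjusted p = 0.0208). The call of Suv420h1 was lost without DM2 (difference 1.51). That of Prdm2 was lost without CM1, DM1 or DM2 (differences 0.92, 1.85 and 0.985). The writers thus split between the directions. Leaving out 1 library ended the call of Dnmt1 without CM1 (adjusted p = 0.0609) and Uhrf1 without CM1 (0.0668) or CM2 (0.0541). Scaling without Rn45s gave 19 higher and 5 lower of the histone and DNA methylation enzymes.

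The metallothioneins, small proteins that bind zinc and copper and are induced by metals, were far lower in DM, and Mt1 had the smallest adjusted p of all rows tested. Mt1 had 894 and 1036 CPM in CM and 76.7 and 70.01 in DM (-3.70 ± 0.16, adjusted p = 9.45e-06). Mt2 had 867 and 794 CPM in CM and 31.7 and 43.4 in DM (-4.45 ± 0.24, adjusted p = 1.61e-05). For either gene both CM libraries lay far above both DM libraries, and libraries of the same medium lay close together. The genes neighbour each other on chromosome 8. Their promoter windows are shown because the genes moved together. The windows are from RefSeq (GRCm38.p6) and run from 250 bases before to 50 after the start, on the plus strand at chr8:94178839-94179138 for Mt1 and chr8:94172368-94172667 for Mt2. Capitals mark the core of the metal response element, TGCACNC or TGCGCNC on either strand.
Mt1: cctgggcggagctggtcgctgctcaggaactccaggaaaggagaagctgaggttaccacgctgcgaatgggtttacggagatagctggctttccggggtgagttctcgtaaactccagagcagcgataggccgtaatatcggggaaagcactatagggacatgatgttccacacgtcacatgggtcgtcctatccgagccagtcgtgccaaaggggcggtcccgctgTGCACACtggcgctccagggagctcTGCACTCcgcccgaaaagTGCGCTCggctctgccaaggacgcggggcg
Mt2: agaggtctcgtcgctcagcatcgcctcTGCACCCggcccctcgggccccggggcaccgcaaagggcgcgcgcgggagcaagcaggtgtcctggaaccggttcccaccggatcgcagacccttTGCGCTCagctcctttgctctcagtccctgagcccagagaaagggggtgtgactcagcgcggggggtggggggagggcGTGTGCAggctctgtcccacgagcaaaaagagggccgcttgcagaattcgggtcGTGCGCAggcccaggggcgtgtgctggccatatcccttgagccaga
The Mt1 window held 3 matches and the Mt2 window 4, and 1.97% of all 32851 mouse windows held 3 or more, whereas 25.7% held at least 1. Among windows of tested genes these shares were 3.37% and 35.6%. A match is a run of letters and not a bound site, and its part in the difference between the media was not tested. Mt1 and Mt2 are also in the list of glucocorticoid response genes, of which 3 were higher and 5 lower of 16 tested (2, 1, 1 and 1 higher and 2, 2, 4 and 5 lower), with a median of -0.15, or 0.004 without Rn45s in the scaling. That list had 50% of its tested genes called, against 16.9% of all rows. The receptor Nr3c1 had 52.7 and 49.4 CPM in CM and 115 and 109 in DM (1.12 ± 0.19, adjusted p = 0.00467). Its target Fkbp5 had 63.7 and 58.02 CPM in CM and 10.7 and 25.2 in DM (-1.82 ± 0.38, adjusted p = 0.0122). The receptor and this target thus differed in direction. Ddit4, another target, had 970.5 and 1131 CPM in CM and 562 and 286 in DM (-1.38 ± 0.26, adjusted p = 0.00706). The kinase Sgk1 and the phosphatase Dusp1, targets too, were higher (1.77 ± 0.40, adjusted p = 0.0168 and 1.40 ± 0.34, adjusted p = 0.0228). No longer called were Fkbp5 without CM1 (adjusted p = 0.105) or CM2 (0.0803), Ddit4 without CM1 (0.0763) or CM2 (0.0924) and Sgk1 without any 1 of the 4 (from 0.0532 to 0.115). Lost as well was the call of Dusp1 without CM2 (adjusted p = 0.0904) or DM1 (0.116) or DM2 (0.0794). The difference of Ddit4 without DM2 was -0.90.

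Of 32 tested chaperones, which fold new proteins, 16 were lower and none higher (10, 10, 12 and 13 lower), with a median of -0.85. That share of lower genes stands against 9.07% of all rows, in a list chosen with earlier results of these data known. The inducible HSP70 genes had the widest gap. Hspa1a had 42.7 and 82.5 CPM in CM and 3.16 and 0.883 in DM (-4.43 ± 0.61, adjusted p = 0.00176). Hspa1b had 60.9 and 43.8 CPM in CM and 0 and 0.442 in DM (-5.46 ± 0.54, adjusted p = 0.000388). These neighbours on chromosome 17 are near-identical, so reads may have been divided between them. Their promoter windows (RefSeq, GRCm38.p6, minus strand, chr17:34972107-34972406 and chr17:34959189-34959488) show that likeness, since 296 of 300 bases were the same. Capitals mark GAANNTTC, the core pair of a heat shock element, which reads the same on both strands.
Hspa1a: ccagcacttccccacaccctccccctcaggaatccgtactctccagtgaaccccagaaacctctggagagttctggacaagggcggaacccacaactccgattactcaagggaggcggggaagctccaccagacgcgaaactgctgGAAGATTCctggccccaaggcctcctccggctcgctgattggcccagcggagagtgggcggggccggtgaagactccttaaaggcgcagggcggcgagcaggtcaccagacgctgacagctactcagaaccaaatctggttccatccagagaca
Hspa1b: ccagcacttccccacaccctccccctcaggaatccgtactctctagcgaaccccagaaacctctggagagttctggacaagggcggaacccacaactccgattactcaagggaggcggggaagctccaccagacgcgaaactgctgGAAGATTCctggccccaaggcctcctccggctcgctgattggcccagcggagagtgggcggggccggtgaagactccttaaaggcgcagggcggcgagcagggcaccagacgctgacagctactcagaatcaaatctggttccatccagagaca
Each window held 1 match, whose part in the difference was not tested. At least 1 match was held by 7.86% of all windows, by 5.8% of the windows of tested genes and by 9 of the 25 windows of tested chaperone genes. Constitutive chaperones were lower too. Named after their values were seen, Hsp90ab1 had 4594 and 4972 CPM in CM and 1564 and 1518 in DM (-1.63 ± 0.13, adjusted p = 0.000124). Hspa8 had 665 and 608 CPM in CM and 211 and 266 in DM (-1.42 ± 0.16, adjusted p = 0.000610). Libraries of the same medium lay close together for both.

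Chaperone and unfolded protein response genes of the endoplasmic reticulum gave 1 higher and 11 lower of 28 (0, 0, 0 and 1 higher and 4, 6, 7 and 8 lower), with a median of -0.59. In all 42.9% were called, against 16.9% of all rows. The disulfide isomerase P4hb had 349 and 364 CPM in CM and 126 and 99.1 in DM (-1.66 ± 0.18, adjusted p = 0.000486). Pdia6, of the same family, had 226 and 195 CPM in CM and 88.1 and 54.6 in DM (-1.59 ± 0.24, adjusted p = 0.00270). Their oxidase Ero1l, which hypoxia also induces, had 531 and 511 CPM in CM and 96.8 and 125 in DM (-2.23 ± 0.18, adjusted p = 0.000139). These enzymes form and rearrange disulfide bonds of secreted proteins. The translocon subunit Sec61b had 144 and 169 CPM in CM and 54.1 and 63.4 in DM (-1.40 ± 0.21, adjusted p = 0.00245). Herpud1, of the degradation pathway, was the higher one, with 49.2 and 55.1 CPM in CM and 130.1 and 80.5 in DM (0.96 ± 0.25, adjusted p = 0.0270). The call was lost for Pdia6 without CM1 (adjusted p = 0.0596) and Herpud1 without CM1 (0.155) or CM2 (0.103) or DM1 (0.120). The difference of Herpud1 without DM1 was 0.62. Without Rn45s in the scaling there were 3 higher and 9 lower of the ER chaperone and unfolded protein response genes.

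Genes of protein production and turnover were called lower more often than higher. Of 82 tested cytosolic ribosomal proteins 29 were lower and none higher (5, 9, 24 and 17 lower), with a median of -0.38. Their called share was 35.4%, against 16.9% of all rows. Rplp1 of the ribosomal stalk stood out, with 6303 and 6212 CPM in CM and 1562 and 1371 in DM (-2.10 ± 0.14, adjusted p = 5.08e-05). Rps2 had 818 and 703 CPM in CM and 244 and 278 in DM (-1.54 ± 0.15, adjusted p = 0.000364). Mitochondrial ribosomal proteins had 13 lower of 77 and none higher (2, 2, 3 and 6 lower), a share of 16.9%. Proteasome subunits had 10 lower of 38 and none higher (2, 2, 4 and 5 lower). Called proteasome subunits were 26.3% of those tested, against 16.9% of all rows. Mrpl45 had 181 and 173 CPM in CM and 59.05 and 49.4 in DM (-1.69 ± 0.19, adjusted p = 0.000772). The proteasome ATPase Psmc6 had 167 and 175 CPM in CM and 64.7 and 74.1 in DM (-1.29 ± 0.20, adjusted p = 0.00268). In ribosome biogenesis, 1 was higher and 3 lower of 40 (0, 1, 0 and 0 higher and 1, 2, 3 and 2 lower), a share below that of all rows. The nucleolar protein Npm1 had 1399.8 and 1399 CPM in CM and 405 and 444 in DM (-1.72 ± 0.13, adjusted p = 9.73e-05). Ncl, nucleolin, had 2231 and 2039.9 CPM in CM and 966 and 1182 in DM (-0.997 ± 0.15, adjusted p = 0.00231). The polymerase I factor Ubtf, the higher one, had 29.04 and 45.6 CPM in CM and 129 and 81.8 in DM (1.47 ± 0.28, adjusted p = 0.00807). Calls lost were those of Ncl without CM1 (adjusted p = 0.0554) and Ubtf without CM1 (0.0869) or DM1 (0.104) or DM2 (0.0508). Counts scaled without Rn45s were none higher and 8 lower of the mitochondrial ribosomal proteins and 3 higher and 3 lower of the ribosome biogenesis genes.

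Genes of energy metabolism were called lower far more often than higher. Nuclear-encoded subunits of the respiratory chain and ATP synthase had 1 higher and 33 lower of 81 tested (0, 0, 0 and 0 higher and 6, 9, 14 and 14 lower), with a median of -0.62. Of these subunits 42.0% were called, against 16.9% of all rows. With only CM and DM in the fit, 11 were lower and none higher. Cox8a of complex IV had 483 and 459 CPM in CM and 179.8 and 166 in DM (-1.44 ± 0.15, adjusted p = 0.000457). Ndufb8 of complex I had 155 and 154 CPM in CM and 73.96 and 65.1 in DM (-1.14 ± 0.19, adjusted p = 0.00367). Glycolysis and hypoxia-induced genes had 1 higher and 11 lower of 31 (0, 0, 0 and 0 higher and 5, 6, 9 and 6 lower), with a median of -0.49. Called members of this list were 38.7%, against 16.9% of all rows. Ndrg1, induced in hypoxia, had 329.6 and 401 CPM in CM and 147 and 120.2 in DM (-1.45 ± 0.18, adjusted p = 0.00109). The aldolase Aldoc had 183 and 131 CPM in CM and 46.7 and 17.1 in DM (-2.41 ± 0.42, adjusted p = 0.00517). Pfkl, a phosphofructokinase, was the higher gene with 66.6 and 68.5 CPM in CM and 186 and 124 in DM (1.16 ± 0.25, adjusted p = 0.0137). This was against the direction of the list. Hif1a, the factor that drives many of these genes, had 461 and 492 CPM in CM and 333 and 336 in DM (-0.51 ± 0.14, adjusted p = 0.0314). The call did not hold for Aldoc without CM1 (adjusted p = 0.0885) or CM2 (0.0512) or DM2 (0.0523), Pfkl without any 1 of the 4 (from 0.0537 to 0.127) and Hif1a without any 1 of the 4 (from 0.0596 to 0.134). Scaling without Rn45s gave 1 higher and 20 lower of the nuclear-encoded respiratory chain and ATP synthase subunits.

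**Figure D5:**
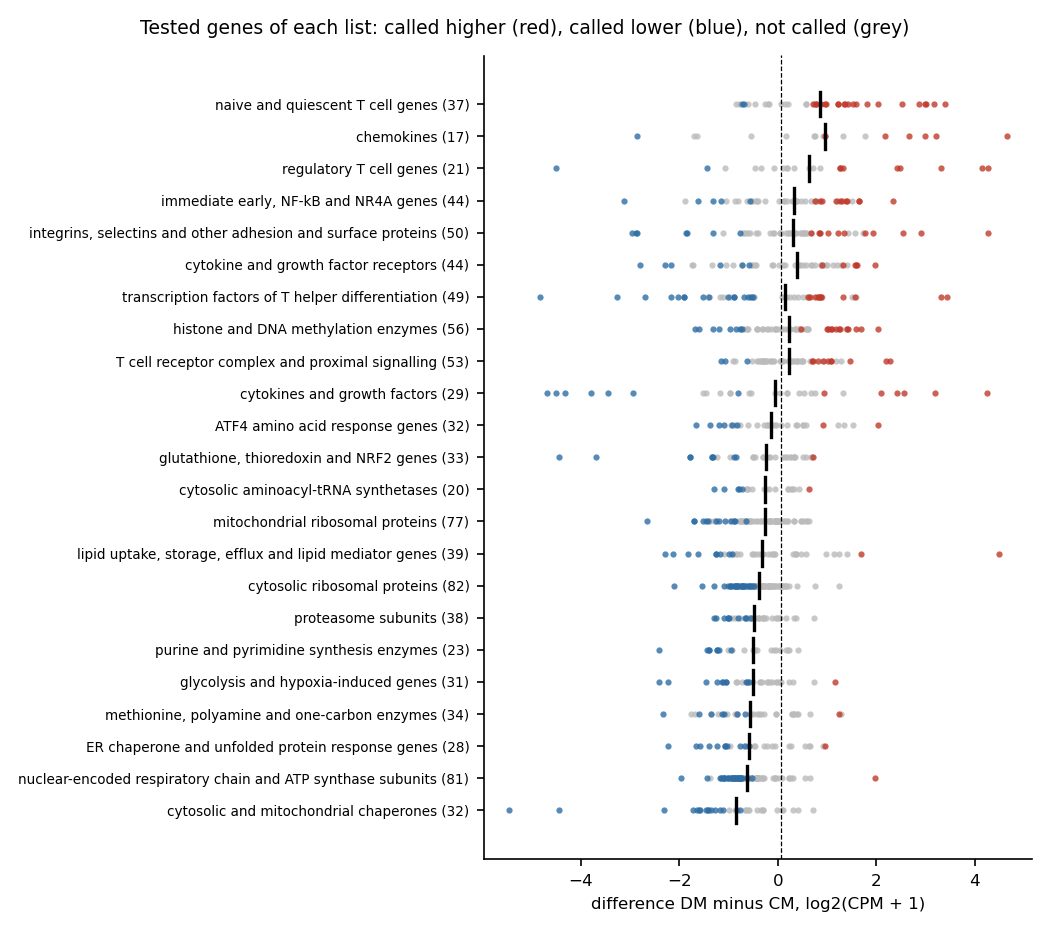
Each point is a tested gene of a list, with the number tested in brackets, placed by its difference DM minus CM and coloured by its call. Black bars are list medians and the dashed line is the median of all rows tested, 0.07. The median of chaperones was the lowest shown, and naive and quiescent genes and chemokines lay highest.

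Genes tied to amino acid supply did not move as one. ATF4 amino acid response genes, which are induced when amino acids run short, had 2 higher and 6 lower of 32 tested (0, 0, 1 and 1 higher and 1, 1, 3 and 2 lower), with a median of -0.13, or 0.02 without Rn45s in the scaling. That was 25% of the list, against 16.9% of all rows. Atf4 itself had 458 and 597 CPM in CM and 259.8 and 293 in DM (-0.92 ± 0.17, adjusted p = 0.00593). Asns, asparagine synthetase and a standard target, had 43.2 and 28.04 CPM in CM and 8.47 and 12.7 in DM (-1.65 ± 0.39, adjusted p = 0.0202). The serine synthesis enzyme Psat1 had 108 and 111 CPM in CM and 51.4 and 50.2 in DM (-1.09 ± 0.20, adjusted p = 0.00591). Atf5 and Slc7a1, an arginine transporter, were the 2 higher genes. Atf5 had 22.3 and 21.6 CPM in CM and 136 and 64.1 in DM (2.04 ± 0.32, adjusted p = 0.00324). Slc7a1 had 55.8 and 46.5 CPM in CM and 87.6 and 107 in DM (0.91 ± 0.20, adjusted p = 0.0149). Slc7a1 was also the 1 call among 24 amino acid transporters (0, 1, 0 and 0 higher), and Slc7a5, the leucine and methionine transporter, had 32.6 and 43.2 CPM in CM and 45.98 and 40.5 in DM (0.20 ± 0.25, adjusted p = 0.633). The transporter of methionine thus had overlapping CM and DM levels. Of 20 tRNA synthetases 1 was higher and 5 lower (0, 0, 0 and 0 higher and 1, 1, 2 and 3 lower), and Vars, among the lower, had 96.5 and 126 CPM in CM and 41.4 and 47.1 in DM (-1.30 ± 0.22, adjusted p = 0.00428). Of 35 mTORC1 and amino acid sensing genes, 2 were higher and 2 lower (0, 1, 0 and 0 higher and 0, 0, 1 and 3 lower), a share below that of all rows. Tsc2, a brake of mTORC1, was higher (1.29 ± 0.30, adjusted p = 0.0183) and the mTORC1 subunit Mlst8 was lower (-1.75 ± 0.45, adjusted p = 0.0264). Leaving out 1 library ended the call of Atf4 without CM2 (adjusted p = 0.0631) or DM1 (0.0770) or DM2 (0.0556), Asns without any 1 of the 4 (from 0.0511 to 0.127) and Psat1 without CM1 (0.0532). It was also lost for Atf5 without CM1 (adjusted p = 0.0595) or CM2 (0.0527), Slc7a1 without any 1 of the 4 (from 0.0501 to 0.0871) and Vars without DM1 (0.0550). Further losses were those of Tsc2 without CM1 (adjusted p = 0.102) or DM1 (0.116) or DM2 (0.0633) and Mlst8 without any 1 of the 4 (from 0.0547 to 0.139). Without Rn45s in the scaling there were 3 higher and none lower of the amino acid transporters.

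In methionine, polyamine and one-carbon metabolism 1 of 34 tested genes was higher and 7 were lower (1, 0, 1 and 1 higher and 1, 4, 2 and 4 lower), with a median of -0.56. The list's share of calls was 23.5%, against 16.9% of all rows. Mat2a, which makes S-adenosylmethionine from methionine, was the higher gene with 159 and 138 CPM in CM and 430.4 and 291 in DM (1.25 ± 0.20, adjusted p = 0.00320). Ahcy, which clears the S-adenosylhomocysteine that methylation leaves, had 79.8 and 64.2 CPM in CM and 8.87 and 20.3 in DM (-2.32 ± 0.39, adjusted p = 0.00437). Odc1, the first enzyme of polyamine synthesis, had 119.6 and 108 CPM in CM and 37.6 and 35.8 in DM (-1.604 ± 0.20, adjusted p = 0.00115). Nucleotide synthesis had 8 lower and none higher of 23 (1, 4, 4 and 4 lower). Of the nucleotide synthesis enzymes 34.8% were called, against 16.9% of all rows. The CTP synthase Ctps had 24.4 and 29.2 CPM in CM and 2.75 and 6.18 in DM (-2.42 ± 0.48, adjusted p = 0.00966). The purine enzyme Paics had 432 and 299 CPM in CM and 106 and 174 in DM (-1.40 ± 0.25, adjusted p = 0.00590). No longer called were Mat2a without CM2 (adjusted p = 0.0544), Ahcy without CM1 (0.0720) or DM1 (0.0537) and Ctps without CM1 (0.0652) or CM2 (0.0709) or DM1 (0.0604). Lost as well was the call of Paics without CM1 (adjusted p = 0.0901) or DM1 (0.0870). Counts scaled without Rn45s were 1 higher and 3 lower of the methionine, polyamine and one-carbon enzymes.

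Lipid handling genes outside sterol synthesis had 2 higher and 9 lower of 39 tested (1, 2, 0 and 2 higher and 2, 1, 5 and 1 lower). The list's called share was 28.2%, against 16.9% of all rows. Scd2, a stearoyl-CoA desaturase outside the list and among the greatest decreases of all rows, had 406 and 429 CPM in CM and 29.1 and 27.9 in DM (-3.83 ± 0.21, adjusted p = 1.62e-05). Lpl, lipoprotein lipase, was near 0 in CM with 0 and 1.28 CPM in CM and 34.9 and 31.5 in DM (4.50 ± 0.54, adjusted p = 0.000978). Scarb1, a lipoprotein receptor, had 76.1 and 63.7 CPM in CM and 25.2 and 8.92 in DM (-2.13 ± 0.45, adjusted p = 0.0120). Lpl is a product of macrophages as well, and the part of such cells was not tested. Fatty acid oxidation had 3 lower of 25 (1, 1, 2 and 1 lower), with Acadl at 123 and 129 CPM in CM and 33.97 and 43.7 in DM (-1.68 ± 0.24, adjusted p = 0.00203). Lysosomal genes had 1 higher and 3 lower of 37 (0, 0, 0 and 0 higher and 2, 2, 2 and 2 lower), with the protease Ctse at 66.04 and 47.9 CPM in CM and 8.77 and 9.01 in DM (-2.53 ± 0.26, adjusted p = 0.000457), and autophagy genes had 2 higher of 29 (0, 1, 0 and 1 higher). These 3 lists were called less often than genes at large, and their medians of -0.10, -0.10 and -0.09 turned to 0.03, 0.05 and 0.07 without Rn45s in the scaling. Glutathione, thioredoxin and NRF2 genes had 1 higher and 9 lower of 33 (0, 0, 0 and 0 higher and 4, 7, 6 and 6 lower), Mt1 and Mt2 among the lower. Called members were 30.3% of this list, against 16.9% of all rows. The transketolase Tkt had 249.9 and 276 CPM in CM and 101 and 56.2 in DM (-1.79 ± 0.26, adjusted p = 0.00238). The call was lost for Lpl without DM1 (adjusted p = 0.0536), Scarb1 without CM1 (0.112) or CM2 (0.0786) or DM2 (0.0538) and Tkt without CM1 (0.0501). Scaling without Rn45s gave none higher and 1 lower of the fatty acid oxidation genes and 3 higher and 3 lower of the lysosomal genes.

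Type 2 helper and steroid synthesis genes had 1 higher and 3 lower of 14 (1, 1, 1 and 1 higher and 1, 2, 1 and 1 lower). Those called were 28.6% of the list, against 16.9% of all rows. Cyp11a1, which starts steroid synthesis from cholesterol, had 82.5 and 74.5 CPM in CM and 4.18 and 0.795 in DM (-4.70 ± 0.73, adjusted p = 0.00315). The higher gene was Il9, and Il24 was among the lower ones. A call lost was that of Cyp11a1 without CM1 (adjusted p = 0.0600) or DM1 (0.0510) or DM2 (0.0735). Without Rn45s in the scaling there were 2 higher and 3 lower of the type 2 helper and steroid synthesis genes.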

How the data were processed

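The 6 libraries were prepared with a 3′ kit from 500 ng of total RNA, 2 per medium, and the submitters' processing notes name Bowtie2, bedtools and mm10. The authors deposited log2 values per gene, log2(CPM + 1) after TMM scaling, in 23282 rows. The labels do not say how the 2 libraries of a medium relate. The study calls them biologically independent samples, and p-values measure the spread between these libraries. Values times the library's unit gave whole reads (within 0.1 of a read) for at least 99.8% of low values, from which depth was taken. The ± values are standard errors of the fit, from the spread between libraries. Floors of 3 reads cover counting error only.

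Rows were kept at 0.946 CPM in 2 libraries and 15 reads in all (12770 rows). The study's methods name Student's test for 2 groups, and its legend for metabolism genes in CM and DM names Tukey's test after ANOVA. Here one limma fit with trend (limma 3.58.1, R 4.3.3) over the 3 media gave the contrast DM minus CM, called at a Benjamini-Hochberg adjusted p under 0.05. It was tested on simulated data. Other steps ran in Python 3.11.15 with pandas 2.3.3. Replicate numbers were checked for pairing and did not pair the libraries.

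Gene lists and members were chosen with earlier results of these data known. The text draws its genes from up to 4 called genes per list and direction with the largest difference and at least 10 CPM in the higher medium, the 20 largest increases and 20 largest decreases of all rows passing the same conditions, and a fixed set of T cell genes. Predicted genes, receptor segments, pseudogenes, Pdcd1, Prkaa1 and the 3 lists set aside were passed over among all rows. Genes outside that rule are stated as named after their values were seen. Some genes that the rule takes in are not reported here. Promoter windows were matched by symbol to RefSeq (GRCm38.p6) for 9627 of the tested rows. Alternatives covered scaling, the added constant, the low-value filter, the fit and the libraries left out.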

Additional observations from a re-analysis of the deposited data

How the results depend on the processing

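Of 12770 genes tested, 2154 were called. The count was 795 (277 higher and 518 lower) with only CM and DM in the fit, 1329 (689 and 640) without the trend and 614 (248 and 366) when a difference beyond 0.5 log2 units was required. It ranged from 541 without CM1 to 1061 without DM2. With 1 library left out, the lone library of a medium is assumed to vary like those of the other media. Other settings gave 1582 to 2215 calls, among them 2215 with library totals free of Rn45s (59.6% higher, against 46.2% in the report) and 1582 by limma-voom on the recovered reads (37.1% higher). Of the genes that the rule named or that were named after their values were seen, none changed sign under any of the 16 alternatives apart from Cd3e and Bcl6, neither of which was called. The difference of Cd3e was -0.0245 without DM1 and 1.02 without DM2, and that of Bcl6 was -0.0365 without CM1 and ranged up to 0.68 without CM2. In each case the cause was not tested. In all, 261 genes were called under all 16 alternatives. Libraries sharing a number did not deviate together (correlations of -0.025, 0.0048 and -0.030), and the fit with the replicate block gave 1947 calls (890 higher and 1057 lower). Libraries of 8504742 to 12377285 reads put a floor of 3 reads at 0.265 to 0.384 CPM in CM and DM.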

Other observations

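Some genes with large increases had few or no reads in CM. Scin, an actin-severing protein, had no read in CM, against 102 and 127 reads in DM1 and DM2. With 3 reads per library as the floor, its DM level was at least 29.8-fold higher. Ifit1bl1, an interferon-induced gene, had no read in CM either, against 85 and 153 reads in DM. By the same floor it was at least 30.6-fold higher. H2-M2, a nonclassical class I gene, had 0.114 and 0 CPM in CM and 17.9 and 9.80 in DM (3.76 ± 0.54, adjusted p = 0.00223). Lad1, a basement membrane protein of skin, had 4.67 and 2.31 CPM in CM and 53.2 and 64.2 in DM (3.78 ± 0.41, adjusted p = 0.000564). Clec4n (Dectin-2), a receptor of myeloid cells for fungi, had 0.798 and 1.79 CPM in CM and 22.5 and 23.1 in DM (3.41 ± 0.46, adjusted p = 0.00165). Markers of macrophages and monocytes summed to 25.7 and 16.3 CPM in CM and 45.4 and 42.8 in DM, and their part in the values of Scin and Clec4n was not tested.

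Among large decreases were genes best known from thyroid and pituitary. Tg (thyroglobulin) had 156 and 192 CPM in CM and 13.6 and 8.12 in DM (-3.92 ± 0.34, adjusted p = 0.000177), and both DM libraries were far below both CM libraries. Gh (growth hormone) had 34.2 and 32.5 CPM in CM and 1.22 and 1.77 in DM (-3.79 ± 0.37, adjusted p = 0.000363). Adarb1, an RNA-editing deaminase, had 14.1 and 21.1 CPM in CM and 0.102 and 0.353 in DM (-3.91 ± 0.58, adjusted p = 0.00243). Selenbp1, a selenium-binding protein, had 45.8 and 56.4 CPM in CM and 3.26 and 2.38 in DM (-3.77 ± 0.51, adjusted p = 0.00165). All 4 were called with each library left out. So was Fam213a, a redox protein, with 38.6 and 24.97 CPM in CM and 0.509 and 2.38 in DM (-3.83 ± 0.56, adjusted p = 0.00237).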
